A study of Danio rerio with 8 samples.

Results

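Basement membranes are thin sheets of extracellular matrix that underlie epithelia and surround muscle fibres, peripheral nerves and blood vessels. They are built from a laminin network, whose units are trimers of an alpha, a beta and a gamma chain, and a collagen IV network, whose units are trimers of collagen IV chains. Nidogens and heparan sulfate proteoglycans link the networks, and the FRAS and FREM proteins anchor the basement membrane of the skin to the connective tissue below. In zebrafish myosepta and around vessels, fibroblasts and mural cells are among the cells that lie against such sheets and contribute chains to them.

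The genes described here are 31 named basement membrane genes, of which 30 were found among the 31901 genes of the count table. The member without an identifier, col15a1a, is not analysed here. They comprise 6 collagen IV chains, 2 genes of collagens XV and XVIII, 5 laminin alpha, 4 laminin beta and 2 laminin gamma chains, 4 nidogens, the proteoglycan genes hspg2 and agrn, and 5 FRAS and FREM genes. A filter on low counts was passed by 27 of them. It left out col4a3, lama3 and nid2b, whose highest library held 16, 49 and 25 counts. All 30 are accounted for below, but counts of tested genes cover the 27 alone.

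RNA-seq was carried out on GFP-positive cells sorted from larvae of the zebrafish line BAC(pdgfrb:Gal4ff)ncv24;UAS:GFP, in which regulatory sequence of pdgfrb, a receptor for platelet-derived growth factor, drives the transcription factor Gal4ff and thereby GFP. The labels call the sorted cells myoseptal and perivascular. All larvae carried the transgenes and were 4 days post fertilization. The lesioned group (4 libraries) had received a mechanical injury of the spinal cord 1 day earlier, and the unlesioned group (4 libraries) had not. Tissue of both groups was dissociated with trypsin. The labels do not state how many larvae were pooled or whether libraries came from separate clutches, and the p-values thus rest on nothing but the spread between these samples, and that spread may be technical. In bulk RNA of sorted cells, fewer cells of a type and less RNA per cell cannot be told apart.

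Total counts lay between 19552807 and 25358885 per library. Mitochondrial genes took 8.91% to 10.2% of counts in libraries 1 and 2 of both groups and 13.8% to 16.8% in libraries 3 and 4, and libraries 3 and 4 also held 64 to 158 counts of synthetic spike-in RNA against 0 to 3. Fold changes within libraries 1 and 2 and within libraries 3 and 4 are therefore given beside the pooled ones where their signs differ, and for some other members. The reporter's own gene pdgfrb had 213 ± 27.4 CPM in unlesioned and 195 ± 68.5 CPM in lesioned libraries (SD, n = 4 each). All 16 mural and all 19 fibroblast, tenocyte and sclerotome markers passed the filter, with acta2 at 9028 and 3623 CPM and col1a1a at 5401 and 6568 CPM. The summed mural markers, of which acta2 made up most in each library, ranged from 7976 to 23060 CPM in unlesioned and from 4505 to 8046 CPM in lesioned libraries. Epidermal markers were also present, at a sum of 925 to 5536 CPM in unlesioned and 1684 to 4118 CPM in lesioned libraries. In unlesioned 1, unlesioned 2 and lesioned 2 most of that sum was krt8 (795, 779 and 1253 CPM). Over the 8 libraries krt8 ranged from 688 to 1253 CPM. Skeletal muscle markers summed to 286 to 1023 CPM and to 185 to 4132 CPM. Endothelial markers summed to 41.0 to 54.0 CPM and to 41.1 to 63.7 CPM, and their defining cadherin cdh5 stayed at or below 0.246 CPM. Within that sum, egfl7 was lower in lesioned libraries (20.8 and 5.02 CPM, groups not overlapping). The marker kdrl had the higher mean in lesioned libraries (16.45 and 30.1 CPM, groups overlapping).

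Levels are given in CPM, which bring the counts of each library to 1 common total with the help of TMM factors. Comparisons between genes use CPM per kilobase of annotated exon, since a longer gene collects more reads. On that scale the leading members over all 8 libraries were col4a6 (55.2), nid1a (45.7), nid1b (44.4), col4a5 (36.1), lama4 (33.4) and col4a1 (31.8). A middle range held nid2a (22.9), lamb1a (21.2), lamc3 (19.7), col18a1a (19.6) and lamb1b (16.8). The FRAS and FREM genes, agrn, lamc1, col4a2, lamb2, lama5 and hspg2 lay between 0.797 and 6.67 CPM per kilobase. The lowest tested members were col15a1b, col4a4, lama2, lamb4 and lama1, at 0.463 or less. The chain with the highest level in each family was thus col4a6, lama4, lamb1a, lamc3 and nid1a, and the library ranges of nid1a (19.96 to 75.8) and nid1b (24.2 to 62.6) overlapped almost fully.

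**Figure D1:**
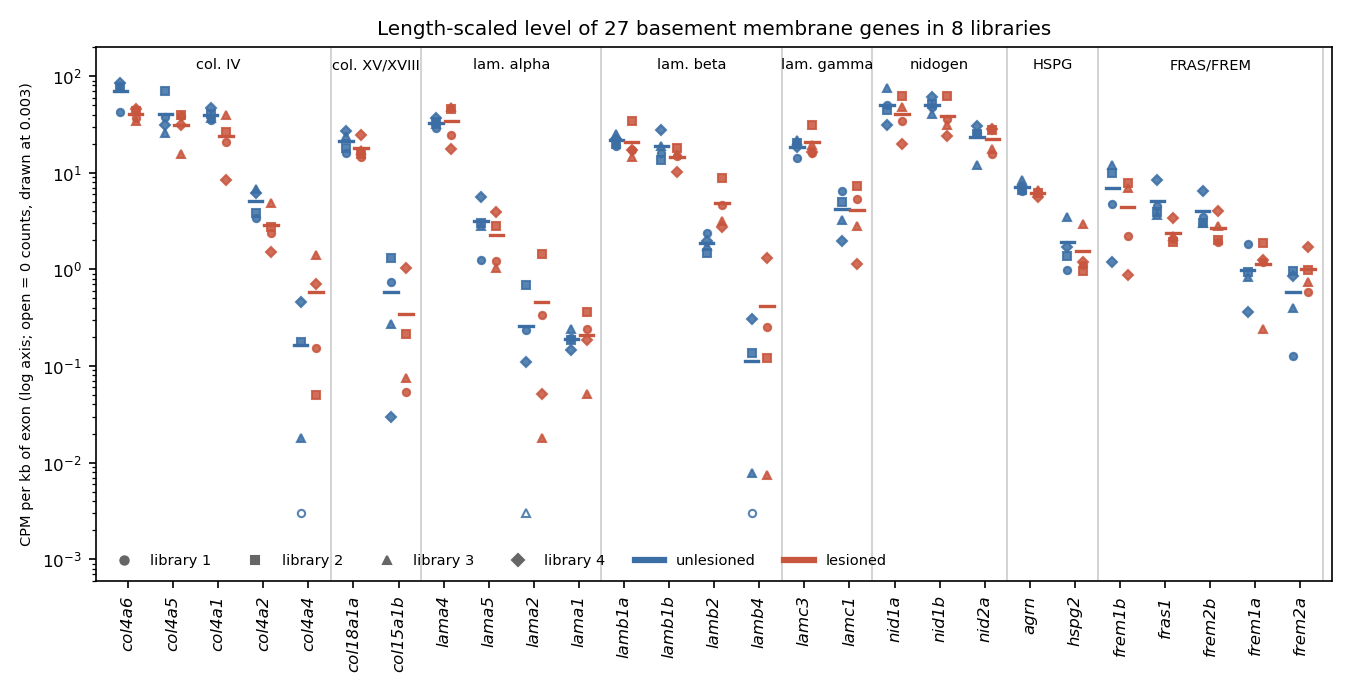
Length-scaled level (CPM per kilobase of exon, log axis) of the 27 tested basement membrane genes, grouped by family, in 4 unlesioned (blue) and 4 lesioned (red) libraries, with horizontal bars at the group means and open symbols for a count of 0. Levels span from below 1 to 85.2 CPM per kilobase, the highest single value being col4a6 in an unlesioned library.

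The comparison of lesioned with unlesioned larvae asks how transcript levels in these cells differ 1 day after a spinal lesion. No basement membrane gene was called over all genes tested. In edgeR's quasi-likelihood test with Benjamini-Hochberg adjustment, 0 of 27 members were higher and 0 lower at an adjusted p under 0.05, against 3 higher and 0 lower among 15759 genes (0.0190% and 0.00%). At an unadjusted p under 0.05, 1 member was higher (lamb2, against 6.07% of all genes) and 2 were lower (fras1 and col4a6, against 5.48%). The 3 make up 11.1% of the tested members, where the share over all genes was 11.6%, so the number of such members was near the background. The groups did not overlap for lamb2, which was higher, and fras1, which was lower, that is, for 7.41% of members against 9.23% of all genes (5.32% higher and 3.91% lower). These shares hold for TMM-scaled levels, and with library size alone as the scaling the groups of fras1 overlapped.

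The log2 fold change was negative in 18 of 27 members (66.7%, against 52.3% of all genes), with a median of -0.25 beside -0.04 over all genes. With library size alone as the scaling these medians were -0.07 and 0.12. Within libraries 1 and 2 the members' median was -0.03, and within libraries 3 and 4 it was -0.32. Same-numbered libraries of both groups deviated together, and the number was therefore used as a pairing in the counts by number and in a fit with a block. The reported fit and the permutation tests did not use it. Libraries 1 and 2 deviated together across numbers about as strongly, so pairs are not told apart within numbers 1 and 2. The lesioned library was the lower one at all 4 numbers for 8 members (29.6%, against 12.9% of all genes), namely col4a2, col4a6, col18a1a, lama5, agrn, frem1b, frem2b and fras1. It was the higher one at all 4 numbers for lamb2 and frem2a (7.41%, against 13.5%). These counts depend on the scaling. With library size alone as the scaling, agrn, lama5, col18a1a and frem2b were not lower at all 4 numbers, and the share of all genes was not computed. With the number as a block in edgeR, 4 members had an unadjusted p under 0.05 (14.8%, against 14.4% of all genes). These were lamb2, which was higher (7.32% of all genes), and fras1, col4a6 and frem1b, which were lower (7.12%). None was called, where 0.0127% of all genes were called higher and 0.00% lower.

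**Figure D2:**
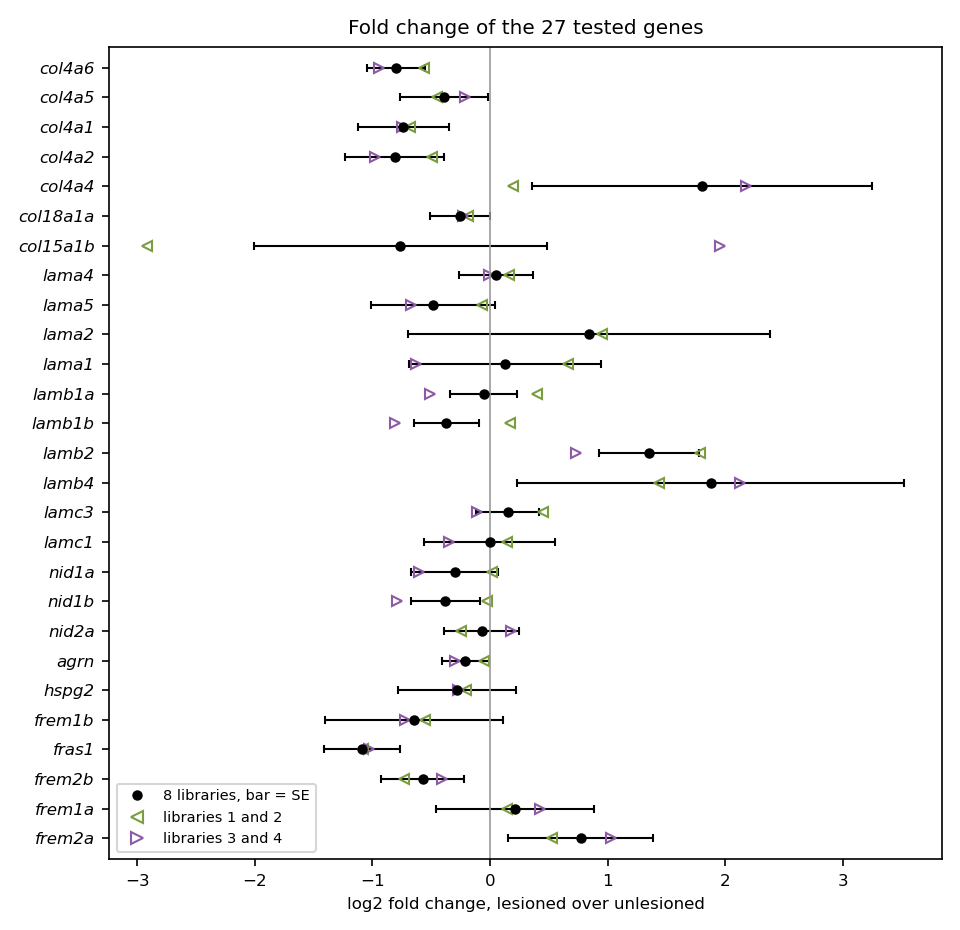
Log2 fold change of lesioned over unlesioned for the 27 tested genes (edgeR; black points with SE bars, 8 libraries), with the values from libraries 1 and 2 alone (green) and libraries 3 and 4 alone (purple). The SE bars of fras1, col4a6 and lamb2, which had an unadjusted p under 0.05, lie on 1 side of 0, as do those of other members such as col4a1 and frem2b, and col15a1b takes opposite signs within the subsets.

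Collagen IV chains had the largest summed CPM of the families in both group means, without scaling for gene length. In lesioned 2 the nidogens had the larger sum (1002 against 802 CPM). Of the 5 tested collagen IV chains, 4 had lower means in lesioned libraries. In mammals, the chains of col4a1 and col4a2 form the trimer found in nearly all basement membranes, and the chain of col4a5 joins that of col4a6 in trimers of smooth muscle and skin. The level of col4a6 was 356, 655, 643 and 720 CPM in unlesioned 1 to 4, against 314, 372, 293 and 383 CPM in lesioned 1 to 4. Of the unlesioned libraries, number 1 alone lay within the range of the lesioned ones. The log2 fold change of col4a6 was -0.80 ± 0.25 (SE, edgeR adjusted p = 0.234), and over the alternatives its adjusted p ran from 0.0623 with DESeq2 to 0.892. It kept an unadjusted p under 0.05 in edgeR in all 8 fits that left out a library (highest 0.0277).

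The levels of col4a1 were 214, 245, 227 and 283 CPM in unlesioned 1 to 4, against 125, 161, 243 and 51.5 CPM in lesioned 1 to 4. The unlesioned libraries thus lay close together (CV 12.4%), while the lesioned ones spread widely (CV 54.8%), with lesioned 3 among the unlesioned values and lesioned 4 far below. The log2 fold change was -0.74 ± 0.39 for col4a1 (edgeR adjusted p = 0.522) and -0.81 ± 0.42 for col4a2 (edgeR adjusted p = 0.514). The level of col4a2 was 17.2, 19.2, 34.3 and 31.2 CPM in unlesioned and 12.01, 13.9, 24.6 and 7.57 CPM in lesioned libraries. For col4a5 the values were 243, 449, 166 and 199.8 CPM and 252, 254, 101 and 199.9 CPM, with a log2 fold change of -0.39 ± 0.37 (edgeR adjusted p = 0.776). At number 1 and, narrowly, number 4 the lesioned library was the higher one for col4a5.

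Summed over the collagen IV chains, the level was 831, 1370, 1070 and 1240 CPM in unlesioned 1 to 4, against 705, 802, 677 and 649 CPM in lesioned 1 to 4. With TMM scaling the sums of the groups did not overlap, by a gap between unlesioned 1 and lesioned 2. With library size alone as the scaling the sums overlapped, since lesioned 2 then lay above unlesioned 1. The median log2 fold change of the 5 tested chains was -0.74, and it was -0.62 with library size alone as the scaling. The summed mural markers also had lower values in lesioned libraries, at 14190 ± 6393 and 6301 ± 1570 CPM (SD, n = 4 each), with negative log2 fold changes in 13 of 16 genes and a median of -0.67. Their part in the collagen IV sum was not tested. Unlesioned 3 had the lowest mural sum of its group (7976 CPM) and lesioned 1 the highest (8046 CPM), while their collagen IV sums were 1070 and 705 CPM. In the remaining libraries both sums were higher in unlesioned than in lesioned ones. Mural sums there were 11910 to 23060 against 4505 to 7076 CPM, and collagen IV sums 831 to 1370 against 649 to 802 CPM. The remaining chains were rare. In mammals, the chains of col4a3 and col4a4 join that of col4a5 in kidney and lung basement membranes. The counts of col4a4 were 0, 36, 4 and 105 in unlesioned and 38, 13, 329 and 175 in lesioned libraries, with a log2 fold change of 1.81 ± 1.44 (edgeR adjusted p = 0.717). That of col4a4 was 0.19 within libraries 1 and 2 and 2.17 within libraries 3 and 4, 0.88 without lesioned 3 and 3.14 without unlesioned 4. For col4a4, lesioned 3 held 14.9 CPM, the library that also had the highest summed muscle markers (4132 CPM), and the part of the latter in this value was not tested. For col4a3 the counts ran from 0 to 16 in the 8 libraries.

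Collagen IV genes lie in divergent pairs. On GRCz11, col4a6 (ENSDARG00000052061) runs from 50920437 to 51102479 of chromosome 7 (minus strand), and col4a5 (ENSDARG00000052063) on the plus strand from 51103232 to 51194430, with 752 bases between them. The pair col4a1 (ENSDARG00000055009, chromosome 9 from 8634229 to 8670158, minus strand) and col4a2 (ENSDARG00000104110, from 8761099 to 8882901, plus strand) is separated by 90940 bases and 1 short annotated gene in the annotation used for counting. The annotated ends of col4a4 and col4a3 on chromosome 15 overlap by 538 bases, and 13.0% of the exon bases of col4a4 and 5.47% of those of col4a3 are shared with other genes. Counting was done without regard to strand, so reads in those shared bases cannot be told apart.

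Within the first pair, the length-scaled level of col4a1 was 8.14 times that of col4a2 in unlesioned and 7.83 times in lesioned libraries, with a range over libraries from 5.45 to 10.5. The log2 ratio differed by -0.06 between the groups (exact two-sided permutation p = 0.857, Benjamini-Hochberg adjusted p = 0.886 over 8 ratios). Over the 8 libraries log2 CPM of col4a1 and col4a2 had a Pearson r of 0.89 (exact permutation p = 0.00102, adjusted p = 0.00203 over 2 pairs) and a Spearman rho of 0.833 (exact p = 0.0154, adjusted p = 0.0308). Without the 2 libraries farthest from the median of col4a1, r was 0.738 over 6 libraries (exact permutation p = 0.0833), so the p under 0.05 was not kept in this smaller set. For col4a5 and col4a6, r was 0.345 (exact permutation p = 0.434) and rho 0.143 (exact p = 0.752), and without the 2 libraries farthest from the median of col4a5 r was -0.79 (exact permutation p = 0.0681). Values of 1 library share its scaling, and the libraries are not known to be independent. These correlations pool both groups, and col4a1 and col4a2 both had lower means in lesioned libraries. Correlation within a group was not tested.

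In the share of summed collagen IV level per kilobase, col4a6 took 35.6% to 52.1% over the 8 libraries, col4a5 16.2% to 39.3% and col4a1 9.74% to 41.3%. Both extremes of col4a1 were lesioned libraries, 41.3% in lesioned 3 and 9.74% in lesioned 4. The ratio of col4a5 to col4a1 was 0.961 in unlesioned and 1.42 in lesioned libraries, a log2 difference of 0.56 (exact permutation p = 0.486, adjusted p = 0.886 over 8 ratios).

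**Figure D3:**
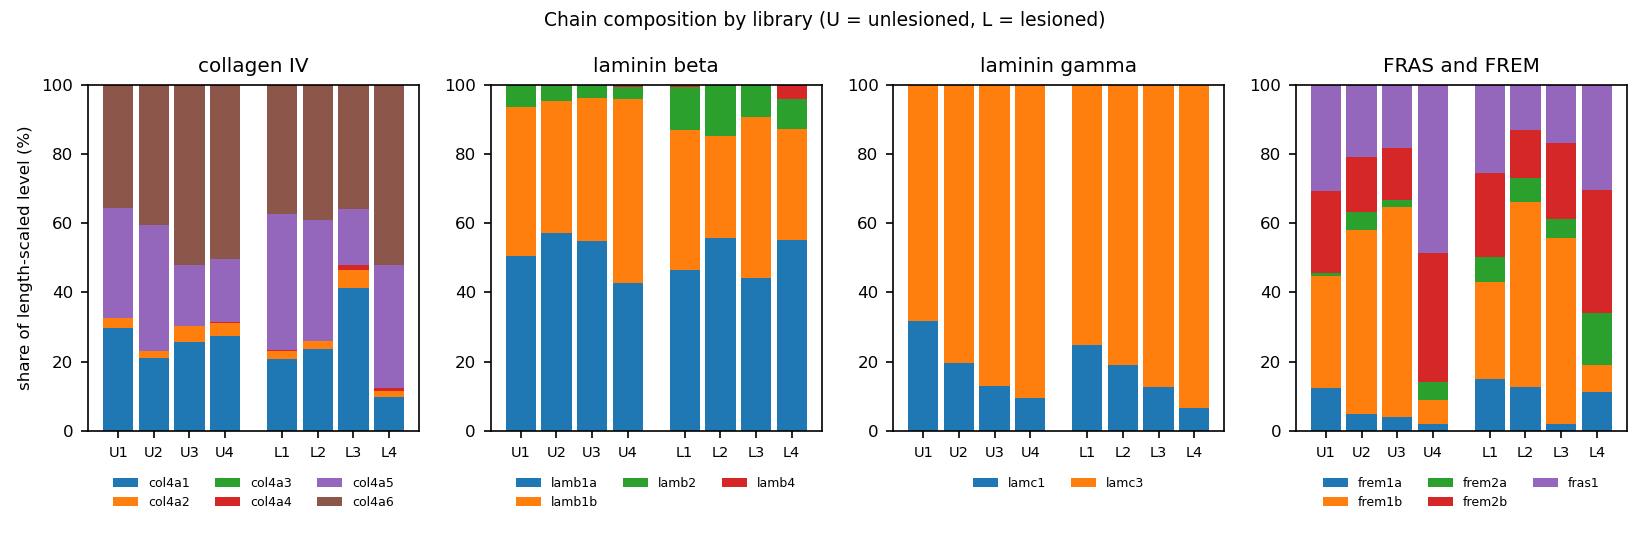
Share of each chain in the summed length-scaled level of its family (percent, stacked to 100), for collagen IV, laminin beta, laminin gamma and FRAS and FREM genes in unlesioned (U) and lesioned (L) libraries 1 to 4. The share of lamb2 in the beta chains lies between 3.73% and 6.48% in unlesioned and between 8.67% and 14.6% in lesioned libraries.

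Collagens XV and XVIII are proteoglycans of the basement membrane zone, and the latter is known as the source of endostatin. The level of col18a1a was 105, 119, 159 and 178 CPM in unlesioned 1 to 4, against 95.2, 102, 112 and 162 CPM in lesioned 1 to 4. On the TMM-scaled level it was lower in lesioned at each number, which did not hold with library size alone as the scaling. The ranges of the groups overlapped (log2 fold change -0.25 ± 0.25, edgeR adjusted p = 0.795). The level of col15a1b was 3.51, 6.23, 1.3 and 0.141 CPM in unlesioned and 0.255, 1.02, 0.362 and 4.93 CPM in lesioned libraries. For col15a1b the log2 fold change was -2.92 within libraries 1 and 2 and 1.96 within libraries 3 and 4, so no common direction was found.

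Among the tested laminin chains, lamb2 alone had groups that did not overlap, as 9.23% of all genes did. No laminin chain was called in edgeR. The alpha chain of lama4, known from vessels and mesenchyme, took 80.9% to 97.1% of the alpha chain level per kilobase. The level of lama4 was 182, 206, 197 and 231 CPM in unlesioned 1 to 4, against 154, 282, 301 and 110 CPM in lesioned 1 to 4. The lesioned libraries lay on both sides of the unlesioned ones, and the log2 fold change of lama4 was 0.05 ± 0.31 (edgeR adjusted p = 0.978). The spread was 10.1% in unlesioned and 44.4% in lesioned libraries (CV). Lesioned 4 was the lowest of the 8 libraries for lama4 and also for col4a1, col4a2, nid1a, nid1b, lamb1b, lamc1, agrn and frem1b.

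The alpha chain of lama5, found in vessels and epithelia, had 14.3, 34.7, 32.7 and 64.2 CPM in unlesioned and 14.2, 32.5, 11.9 and 45.6 CPM in lesioned libraries. On the TMM-scaled level it was lower in lesioned at each number, although by a small margin in libraries 1 and 2. This did not hold with library size alone as the scaling. The log2 fold change of lama5 was -0.07 within libraries 1 and 2 and -0.67 within libraries 3 and 4. In all 8 libraries it was -0.48 ± 0.53 (edgeR adjusted p = 0.817). The highest library of lama5 in each group, number 4, was also the one with the highest summed epidermal markers (5536 and 4118 CPM). The other libraries did not keep this order. Unlesioned 3 and lesioned 3 had epidermal sums of 4545 and 2570 CPM, with lama5 at 32.7 and 11.9 CPM. Unlesioned 2 and lesioned 2 had epidermal sums of 925 and 1684 CPM, with lama5 at 34.7 and 32.5 CPM. Most of these 2 sums was krt8 (779 and 1253 CPM). The part of epidermal cells in lama5 was not tested. The early embryonic chain lama1 ranged from 0.497 to 3.49 CPM and the muscle chain lama2 from 0 to 3.65 CPM, with log2 fold changes of 0.13 ± 0.82 and 0.84 ± 1.54 (adjusted p = 0.98 and 0.911 in edgeR). Within libraries 1 and 2 the log2 fold change of lama1 was 0.66 and within libraries 3 and 4 it was -0.63. For lama4 these values were 0.17 and -0.009. The gene model of lama2 used for counting covers 2.54 kilobases of exon, against 11.5 for lama5. The effect of this on the level seen for lama2 was not tested. The epithelial chain lama3 was listed at 0 in 5 libraries and had 49 counts in lesioned 3.

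The beta chain of lamb2, a partner in laminins of neuromuscular junctions and vessel walls in mammals, was higher in each lesioned library than in each unlesioned one. Its gene (ENSDARG00000002084) occupies chromosome 23 from 20180159 to 20258490 (GRCz11, minus strand) and shares no exon bases with another annotated gene. The level of lamb2 was 13.1, 8.12, 9.48 and 10.6 CPM in unlesioned 1 to 4, against 25.03, 48.6, 17.1 and 14.8 CPM in lesioned 1 to 4. The means were 10.3 ± 2.12 and 26.4 ± 15.4 CPM (SD, n = 4 each), and lesioned 2 carried the highest value. The log2 fold change was 1.35 ± 0.42 (SE), with an adjusted p of 0.237 in edgeR with Benjamini-Hochberg adjustment. DESeq2 alone called lamb2 (adjusted p = 0.0465), where 1.75% of all genes were called higher and 1.54% lower (3.28% in all), and over the alternatives its highest value was 0.9998, in libraries 3 and 4 alone. Without lesioned 2 the log2 fold change was 0.89 (unadjusted p = 0.0455 and adjusted p = 0.525, both by edgeR). It was 1.79 within libraries 1 and 2 and 0.73 within libraries 3 and 4. The 9 tested skeletal muscle markers all had positive log2 fold changes (median 1.77). Their median was -1.69 within libraries 1 and 2, 2.67 within libraries 3 and 4, and 0.51 with the replicate block. Their sum was at its lowest of the 8 libraries in lesioned 2 (185 CPM), the library with the highest lamb2. Most of that sum was actc1b (124 CPM). Of the other markers, ckmb was also at its lowest in lesioned 2. In contrast, tnnt3a, myhz1.1, ckma, pvalb1, neb, atp2a1 and myod1 each had a lower value in another library. The part of muscle cells in the level of lamb2 was not tested.

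For the other beta chains the groups overlapped. The chain of lamb1a, the widely used beta chain of embryonic laminins, had 101, 107, 136 and 119 CPM in unlesioned and 91.8, 182, 78.9 and 92.5 CPM in lesioned libraries, and lesioned 2 alone lay above all others. The log2 fold change of lamb1a was -0.06 ± 0.28 (edgeR adjusted p = 0.976), and with library size alone as the scaling it was 0.14. Within libraries 1 and 2 it was 0.40 and within libraries 3 and 4 it was -0.51. Its co-ortholog lamb1b had a log2 fold change of -0.37 ± 0.28 (edgeR adjusted p = 0.696), with 74.9 to 154 CPM in unlesioned and 56.1 to 101 CPM in lesioned libraries, and it too had opposite signs within libraries 1 and 2 (0.17) and within libraries 3 and 4 (-0.81). The rare chain lamb4 lies 4226 bases from lamb1a on chromosome 25, had 0 to 7.91 CPM and was listed at 0 in unlesioned 1, where a count of 0 allows up to 0.137 CPM by counting error alone. For lamb4 the log2 fold change was 1.88 ± 1.65 (edgeR adjusted p = 0.75), and it was 0.17 without lesioned 4 and 3.10 without unlesioned 4.

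The ratio of lamb2 to lamb1a does not depend on the scaling between libraries. On the length-scaled counts it was 0.087 in unlesioned and 0.22 in lesioned libraries, and its log2 values were -2.96, -3.75, -3.86 and -3.51 in unlesioned 1 to 4, against -1.90, -1.93, -2.23 and -2.67 in lesioned 1 to 4. The groups did not overlap, and the ratio was higher in lesioned at all 4 numbers. The log2 difference was 1.34, with SDs of 0.40 and 0.35, and an exact two-sided permutation p of 0.0286, the smallest that 70 arrangements can give. Adjusted over the 8 ratios formed, this p was 0.229, which the design could not bring lower for a single ratio. The permutation test takes the 8 libraries as unpaired and exchangeable, and it did not use the pairing by number. The log2 difference is close to the log2 fold change of lamb2 itself (1.35), as that of lamb1a was small (-0.06). The ratio is thus not separate evidence on lamb2. The members and rules were chosen with earlier results of these data known. The 7 other ratios had groups that overlapped, with exact permutation p from 0.486 to 0.886, and of these lamc3 to lamc1 was also higher and lama4 to lama2 lower in lesioned at all 4 numbers.

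**Figure D4:**
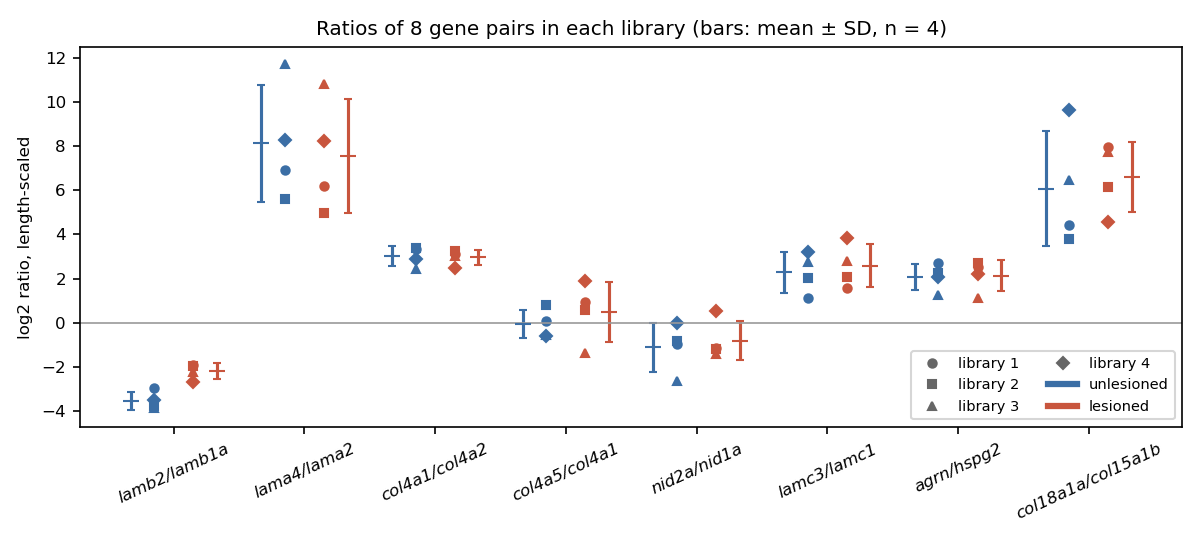
Log2 ratio of the length-scaled counts of 8 gene pairs in 4 unlesioned (blue) and 4 lesioned (red) libraries, with the mean and SD (n = 4) beside the points. The groups are separate for lamb2/lamb1a, at -3.52 and -2.18 on average, and overlap for the other 7 ratios.

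The gamma chains were led by lamc3 and not by lamc1, the gamma chain of most laminins. Per kilobase, lamc3 took 68.3% to 93.5% of the gamma chain level, and its ratio to lamc1 was 4.86 in unlesioned and 5.97 in lesioned libraries (exact permutation p = 0.629, adjusted p = 0.886 over 8 ratios). The level of lamc3 was 71.2, 103, 112 and 93.2 CPM in unlesioned 1 to 4, against 81.2, 158, 99.4 and 82.8 CPM in lesioned 1 to 4. The groups overlapped, with lesioned 2 as the highest library, and the log2 fold change of lamc3 was 0.15 ± 0.27 (edgeR adjusted p = 0.905). For lamc1 the level was 40.0, 30.2, 19.9 and 12.03 CPM in unlesioned and 32.4, 45.2, 17.3 and 6.96 CPM in lesioned libraries (log2 fold change -0.004 ± 0.56, edgeR adjusted p = 0.999). Both gamma chains had positive values within libraries 1 and 2 (0.45 for lamc3 and 0.14 for lamc1) and negative ones within libraries 3 and 4 (-0.11 and -0.35). All 4 libraries numbered 1 or 2 lay above all 4 numbered 3 or 4 for lamc1, col4a5 and lama2, that is, for 3 of 27 members, where 5.56% of all genes showed that order.

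Nidogens, which bind the gamma chain of laminin and collagen IV, were among the most abundant members per kilobase. The level of nid1a was 361, 323, 547 and 225 CPM in unlesioned 1 to 4, against 245, 449, 345 and 144 CPM in lesioned 1 to 4, with unlesioned 3 highest and lesioned 4 lowest. The log2 fold change of nid1a was -0.30 ± 0.37 (edgeR adjusted p = 0.844). For nid1b the level was 306, 330, 255 and 383 CPM and 229, 397, 199.6 and 154 CPM, with a log2 fold change of -0.38 ± 0.30 (edgeR adjusted p = 0.71). For nid2a, means of 134 ± 45.2 and 127 ± 37.4 CPM left a log2 fold change of -0.07 ± 0.32 (edgeR adjusted p = 0.97). The log2 values of nid1a and nid1b were -0.61 and -0.80 within libraries 3 and 4, and 0.02 and -0.03 within libraries 1 and 2. Those of nid2a were 0.18 within libraries 3 and 4 and -0.25 within libraries 1 and 2. The fourth gene, nid2b, had 25 counts in lesioned 1, 5 in unlesioned 2 and 0 in the other 6 libraries.

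The heparan sulfate proteoglycans differed in how evenly they were expressed. Agrin, which clusters acetylcholine receptors at the neuromuscular junction, had the smallest spread of the tested members in lesioned libraries. The level of agrn was 58.8, 59.5, 76.6 and 64.0 CPM in unlesioned 1 to 4, against 57.5, 56.5, 59.5 and 50.5 CPM in lesioned 1 to 4, with CVs of 12.7% and 6.94%. On the TMM-scaled level the lesioned library was lower at each number, which did not hold with library size alone as the scaling. The log2 fold change of agrn was -0.21 ± 0.20 (edgeR adjusted p = 0.77). Perlecan, encoded by hspg2, had 10.9, 15.3, 38.9 and 18.6 CPM in unlesioned and 12.3, 10.6, 32.8 and 13.3 CPM in lesioned libraries. Number 3 was the highest library of hspg2 in both groups, and its log2 fold change of -0.28 ± 0.50 became 0.20 without unlesioned 3. The ratio of agrn to hspg2 per kilobase was 4.2 and 4.41 (exact permutation p = 0.886, also after adjustment over 8 ratios).

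The FRAS and FREM genes held the member with the lowest unadjusted p. FRAS1, FREM1 and FREM2 proteins form a complex beneath the epidermis, and zebrafish larvae without them develop blistered fins. The level of fras1 was 62.5, 54.0, 50.4 and 115 CPM in unlesioned 1 to 4, against 28.2, 26.7, 30.2 and 47.2 CPM in lesioned 1 to 4. Each lesioned library lay below each unlesioned one on this TMM-scaled level, and number 4 was the highest library in both groups. With library size alone as the scaling the groups of fras1 overlapped, since lesioned 4 then lay above unlesioned 3. The means were 70.4 ± 30.0 and 33.1 ± 9.51 CPM (SD, n = 4 each), and the log2 fold change was -1.09 ± 0.33 (SE, edgeR adjusted p = 0.229). Within libraries 1 and 2 and within libraries 3 and 4 the log2 fold change of fras1 was -1.08 and -1.03. Its adjusted p over the alternatives ran from 0.0528 with DESeq2 to 0.926, and it was 0.131 with the number as a block. Without unlesioned 4 the log2 fold change was -0.75. The gene (ENSDARG00000054619) lies on the plus strand of chromosome 5 from 38837429 to 39086768 on GRCz11 and shares no exon bases with another annotated gene.

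**Figure D5:**
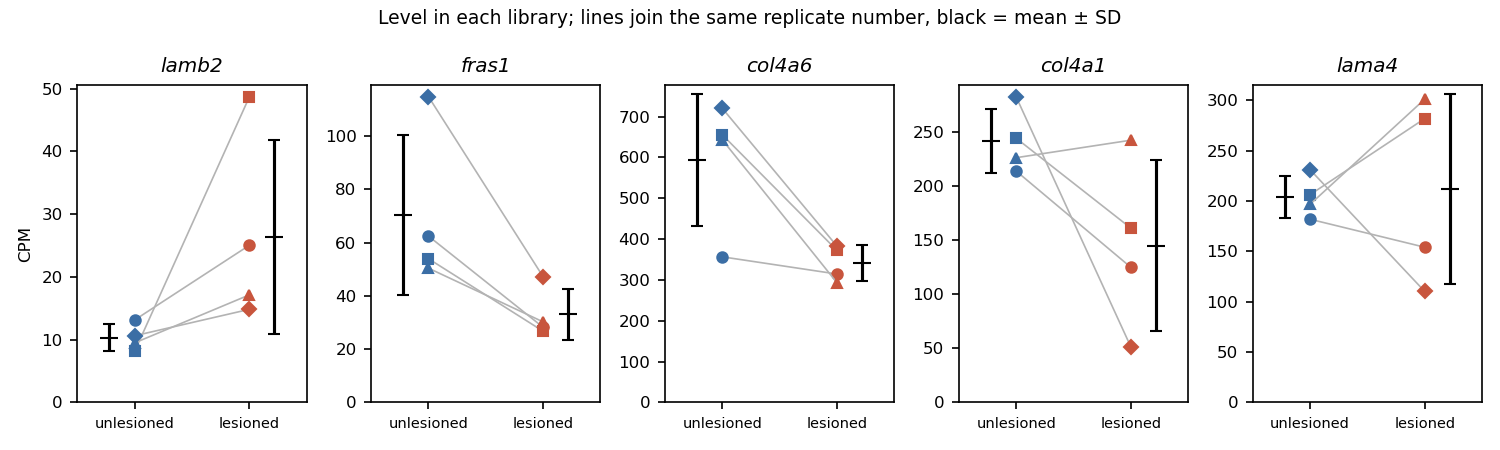
Level (CPM) of lamb2, fras1, col4a6, col4a1 and lama4 in each library, with grey lines joining libraries of the same replicate number and the mean ± SD (n = 4) in black. Every line climbs for lamb2 and descends for fras1 and col4a6, while the lines of col4a1 and lama4 run in both directions.

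Unlesioned 4, the highest library for fras1, also held the highest summed mural markers (23060 CPM) and epidermal markers (5536 CPM) of the 8 libraries. Most of that mural sum was acta2 (14650 CPM). Other mural markers were mixed in unlesioned 4, with rgs5a (816 CPM) the highest and pdgfrb (177 CPM) the lowest of the unlesioned group. Lesioned 4, the highest lesioned library for fras1, held the highest epidermal markers of its group (4118 CPM). Among the lesioned libraries the order of fras1 was that of the epidermal sums, but of the single epidermal markers epcam alone kept it. The markers krt4, krt5, krt91, cyt1, cldni and tp63 were higher in lesioned 1 than in lesioned 3, opposite to fras1. For krt8, epcam, cdh1 and agr1 lesioned 3 was the higher of these libraries. Unlesioned 3, second in its group by epidermal markers (4545 CPM), had the lowest fras1 of that group (50.4 CPM). The part of either cell type in the level of fras1 was not tested. The most abundant gene of the family per kilobase was frem1b, at 32.8, 68.8, 83.6 and 8.18 CPM in unlesioned 1 to 4, against 15.4, 53.8, 48.0 and 5.97 CPM in lesioned 1 to 4. Libraries of the same number resembled each other for frem1b, and number 4 was the lowest in both groups, opposite to fras1. Its log2 fold change was -0.65 ± 0.76 (edgeR adjusted p = 0.833), and with the number as a block the unadjusted p was 0.0233 and the adjusted p 0.261.

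For frem2b the level was 34.6, 30.1, 30.0 and 63.4 CPM in unlesioned and 19.2, 19.9, 27.9 and 39.5 CPM in lesioned libraries, with a log2 fold change of -0.57 ± 0.35 (edgeR adjusted p = 0.607). Its paralog frem2a had 1.82, 14.1, 5.73 and 12.5 CPM and 8.51, 14.4, 10.7 and 24.6 CPM, higher in lesioned at each number (log2 fold change 0.77 ± 0.62, edgeR adjusted p = 0.717). For frem1a the groups had 7.14 ± 4.46 and 8.27 ± 4.86 CPM (edgeR adjusted p = 0.954). The sum over the FRAS and FREM genes was 145, 174, 176 and 202 CPM in unlesioned 1 to 4, against 79.9, 128, 119 and 126 CPM in lesioned 1 to 4, without overlap. The median of their 5 log2 fold changes was -0.57, and -0.42 with library size alone as the scaling.

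Summed over all 30 genes, basement membrane transcripts came to 2943 ± 315 CPM in unlesioned and 2277 ± 481 CPM in lesioned libraries (SD, n = 4 each). The sums were 2481, 3110, 3008 and 3172 CPM in unlesioned 1 to 4, against 2001, 2959, 2261 and 1886 CPM in lesioned 1 to 4, and lesioned 2 lay among the unlesioned libraries. As a share of raw counts this was 0.246% to 0.305% and 0.21% to 0.325%. The collagen IV chains differed by -419.6 CPM between the means and the nidogens by -148 CPM. The laminin alpha, beta and gamma sums had unlesioned and lesioned means of 243 and 242, 233 and 222, and 120.3 and 131 CPM. The coefficient of variation was larger among lesioned than among unlesioned libraries for 17 of 27 members (63.0%, against 39.6% of all genes). Its median over the members was 37.1% for unlesioned and 48.9% for lesioned libraries.

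Proteins that bind or cross-link the basement membrane were taken as a further list, and 1 of its 21 tested genes was called, against 0.0190% of all genes. The list was drawn up with the result for this gene known. This gene, efemp2a, a fibulin, rose from 39.3 ± 9.54 to 438 ± 102 CPM (SD, n = 4 each; log2 fold change 3.48 ± 0.27, edgeR adjusted p = 0.00187). It kept the call with the replicate block (adjusted p = 0.0282) and lost it in libraries 1 and 2 alone (log2 fold change 3.22, adjusted p = 0.0505 in edgeR) and in libraries 3 and 4 alone (log2 fold change 3.81, adjusted p = 0.892 in edgeR). No gene of the list was called lower, and the median log2 fold change was -0.19. At an unadjusted p under 0.05, 2 were higher and 3 lower, against 6.07% and 5.48% of all genes. The groups did not overlap for 2 higher and 3 lower genes, against 5.32% and 3.91% of all genes. The FREM family gene frem3 had 1.57 ± 0.376 and 6.61 ± 2.65 CPM, with each lesioned library above each unlesioned one (log2 fold change 2.07 ± 0.61, edgeR adjusted p = 0.229). Hemicentin hmcn1 had 45.8 and 29.6 CPM (edgeR adjusted p = 0.357) and sparc, which binds collagen IV and is the most abundant gene of the list, 2330 ± 398 and 1674 ± 284 CPM (edgeR adjusted p = 0.428). For hmcn1 and sparc each lesioned library lay below each unlesioned one on the TMM-scaled level. The groups of both genes overlapped with library size alone as the scaling, since lesioned 1 then lay above unlesioned 4.

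Of 29 tested receptors of the basement membrane, 0 were called. At an unadjusted p under 0.05, 3 were higher and 2 lower, against 6.07% and 5.48% of all genes. The groups did not overlap for 1 higher and 2 lower receptors, against 5.32% and 3.91% of all genes. The median log2 fold change was 0.01. The dystroglycan-complex gene sgce, also the most abundant per kilobase, had 126 ± 34.1 and 70.1 ± 8.46 CPM, with groups that did not overlap (log2 fold change -0.84 ± 0.24, adjusted p = 0.216 in edgeR and 0.0419 in DESeq2). The integrin gene itga10 had 5.53 and 22.2 CPM (adjusted p = 0.22 in edgeR and 0.0182 in DESeq2), with the highest level in lesioned 4. Its groups overlapped, with 9.45 CPM in lesioned 3 and 9.80 CPM in unlesioned 2. Of its exon bases, 8.2% are shared with polr3c, and reads there cannot be told apart. The collagen receptor ddr1 had 51.1 ± 11.8 and 30.4 ± 3.91 CPM, without overlap on the TMM-scaled level (edgeR adjusted p = 0.265). Its groups overlapped with library size alone as the scaling, since lesioned 2 then lay above unlesioned 3.

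Enzymes that glycosylate dystroglycan, a receptor for laminin, agrin and perlecan, had 0 of 12 tested genes called, none with an unadjusted p under 0.05, and a median of -0.34. The lowest p values were those of pomt1 (38.8 and 25 CPM), pomgnt1 (15.4 and 9.44 CPM) and b4gat1 (1.61 and 4.5 CPM), and the most abundant gene, fktn, had 31.3 and 25 CPM. Enzymes of heparan sulfate synthesis and editing had 0 of 19 called, 1 lower at an unadjusted p under 0.05 (against 5.48% of all genes) and a median of -0.29. That gene, hs6st1b, a sulfotransferase, had 25.9 ± 7.32 and 14.7 ± 4.23 CPM (edgeR adjusted p = 0.384). The other genes with the lowest p were hpse2 (6.41 and 3.01 CPM) and ndst2b (4.15 and 2.0 CPM), and the most abundant, ext2, had 110.0 and 83.7 CPM.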

How the data were processed

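RNA-seq counts of 8 libraries, 4 per group, were analysed as deposited. Per the submitters' processing notes, the authors used bcl2fastq 2.19.1, GSNAP and featureCounts 1.6.2 on build GRCz11. Per the file header, raw counts per gene came from featureCounts 1.6.3, with Ensembl 92 as the annotation, reads kept from a mapping quality of 1 and strand set to 0, so reads of overlapping or antisense genes cannot be told apart. Which featureCounts version made the table is unknown. Without molecular identifiers, the limit of 3 counts that a count of 0 allows covers counting error only.

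The table holds identifiers alone. Symbols were found for 29178 of 31901 identifiers, 16586 of them from a name table and 10926 by comparing 15 neighbours on each side with the RefSeq annotation of GRCz12tu (at least 2 shared), and 1666 kept a symbol in capitals. Of 2347 paralogs with a known symbol, 2298 were returned with it, 3 with another and 46 were not resolved. The 92 spike-in entries were left out of all fits.

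The groups were compared by edgeR 4.0.16 in R 4.3.3 (TMM, filterByExpr, robust quasi-likelihood fit, two-sided F-test). Values of p were adjusted by Benjamini-Hochberg over 15759 genes, with calls at an adjusted p under 0.05. Positive log2 fold changes mean a higher level in lesioned and carry an SE taken as the fold change over the root of F, and levels are CPM with the SD of 4 libraries. The 8 ratios between genes were log2 of counts per kilobase with 0.5 counts added, compared by exact permutation without the pairing. DESeq2 1.42.0, limma 3.58.1 (voom), other scalings, filters and subsets of libraries were alternatives. The edgeR fit alone was tested on simulated data, and the outcome is not reported here.

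Across genes, deviations of same-numbered libraries from their group means correlated at 0.192, 0.182, 0.232 and 0.154, above the limit of 0.1, so by that rule the numbers pair the libraries. This pairing is seen in the data, since the labels do not state it. For lesioned 1 the highest correlation was with unlesioned 2 (0.199). Lesioned 2 correlated at 0.1816 with unlesioned 1 and at 0.1818 with unlesioned 2. The correlations thus do not tell the pairs of numbers 1 and 2 apart.

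Every member is accounted for. Values in every library are given at least for members with an unadjusted p under 0.05 or groups that do not overlap and for the most abundant of each subfamily. From each related list the 3 genes with the lowest p and the most abundant one are named. The members, lists and rules were chosen with earlier results of these data known.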

Additional observations from a re-analysis of the deposited data

Results flagged for a closer look

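In 6 of 70 groups of 4 values, 1 library lay far from the other 3 by Dixon's criterion, and chance flags about 1 in 20 groups. Among the lesioned libraries, col15a1b had 4.93 CPM in lesioned 4 against 0.255 to 1.02 CPM in the others. The level of lamb1a was 182 CPM in lesioned 2 against 78.9 to 92.5 CPM. For hspg2, lesioned 3 had 32.8 CPM against 10.6 to 13.3 CPM, and unlesioned 3 was likewise the highest of its group. For fras1, lesioned 4 had 47.2 CPM against 26.7 to 30.2 CPM. For frem2b, unlesioned 4 had 63.4 CPM against 30.0 to 34.6 CPM. The log2 ratio of nid2a to nid1a was 0.52 in lesioned 4 against -1.43 to -1.12 in the other lesioned libraries. Outside the gene counts, the entries for synthetic spike-in RNA held 158 counts in unlesioned 3, where the lowest library, unlesioned 2, held 0.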

How the results depend on the processing

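Of 27 members, 15 kept the sign of their fold change under all 17 alternatives, and 1 (lamb2, with DESeq2) was called under any of them. Genes called higher numbered 3 in the reported fit, 275 with DESeq2, 5 without a filter, 5 in libraries 1 and 2, 0 in libraries 3 and 4, and 3 to 7 when leaving out 1 library (7 without unlesioned 3). Genes called lower numbered 0, and 242, 1, 1 and 0 to 1 under the same settings other than libraries 3 and 4. With DESeq2, 1 member was called higher, and 2 receptors were called higher and 1 lower, where 1.75% of all genes were called higher and 1.54% lower. Of the binding and cross-linking list, 0 were called with libraries 1 and 2 and 0 with libraries 3 and 4. With the replicate block, 2 genes were called higher and 0 lower, and the pairing changed no call on a member or on efemp2a. The members' median of -0.25 was -0.071 with library size alone as the scaling, -0.026 in libraries 1 and 2, and -0.43 (without lesioned 2) to -0.093 (without unlesioned 2) when leaving out 1 library. In libraries 1 and 2 the medians of the binding and receptor lists were 0.34 and 0.22, and that of dystroglycan glycosylation was 0.21 with voom and 0.12 with the replicate block. The log2 difference of col18a1a to col15a1b was 2.94 with libraries 1 and 2 and -1.88 with libraries 3 and 4. The causes were not tested.

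Reversed log2 fold changes, none of them called, were as follows. With library size alone as the scaling, lamb1a had 0.14, lamc1 0.14 and nid2a 0.074. Under other filters lamc1 had 0.023 and 0.010. In libraries 1 and 2, lamb1a had 0.40, lamb1b 0.17, lamc1 0.14, nid1a 0.018 and b4gat1 -0.0027. In libraries 3 and 4, col15a1b had 1.96, lama1 -0.63, lama4 -0.0089, lamc3 -0.11 and nid2a 0.18. With voom and with the replicate block, lama1 had -0.12 and -0.080 and lama4 -0.060 and -0.054. Leaving out 1 library gave ranges of -0.26 to 0.45 for lama1, -0.90 to 1.98 for lama2, -0.17 to 0.27 for lama4, -0.39 to 0.075 for lamb1a, -0.43 to 0.31 for lamc1, -0.10 to 0.27 for lamc3, -0.29 to 0.083 for nid2a, -0.80 to 0.20 for hspg2 and -0.12 to 0.70 for frem1a.

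The common dispersion of 0.561 between libraries corresponds to a coefficient of variation of 74.9%, and the effect of depth on precision was not tested.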

Other observations

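Markers of further cell types were listed with the counts. Notochord markers summed to 38.4 to 109 CPM in unlesioned and 40.7 to 263 CPM in lesioned libraries, those of neurons and glia to 5.45 to 230.4 and 4.88 to 31.4 CPM, and those of leukocytes to 2.17 to 88.9 and 4.07 to 43.5 CPM. Erythroid markers summed to 4.70 to 9.38 and 2.35 to 3.81 CPM and pigment cell markers to 105.5 to 347 and 38.6 to 91.4 CPM, without overlap between the groups on TMM-scaled levels. Most of the pigment sum was pnp4a (means of 192 and 68.5 CPM), while the groups of pmela overlapped (3.67 and 3.11 CPM). The pigment sums overlapped with library size alone as the scaling, since lesioned 1 then lay above unlesioned 3. The part of all these cell types in the basement membrane values was not tested.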
